A study of Mus musculus with 8 samples.

Results

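Cytochrome P450 enzymes were examined in the kidney of mice that lack Keap1. The members were all named genes on the array whose symbol starts with Cyp and a digit, other than Cyp27b1 and Cyp24a1, with a probe that the scanner software rated well above background on 4 or more of the 8 arrays. This gave 51 genes of the 78 P450 genes on the array and of 13577 named genes tested. Of the 51, 46 were well above background on all 8 arrays and 5 on 4 to 7 arrays.

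The study compared whole kidney RNA of 4 NEKO mice with that of 4 control mice on 1-colour Agilent arrays, with 2 females and 2 males in each group, all aged 8 weeks. NEKO mice are Keap1-/-::Nrf2Flox/Flox::K5-Cre: Keap1 is missing from the whole body, and Nrf2 is deleted where the Keratin5 promoter drives Cre, in squamous epithelium. The controls were Keap1+/-::Nrf2Flox/Flox. Of these, 3 carried K5-Cre (labelled K1Cre: replicates 4 and 7, males, and replicate 8, a female) and 1 did not (labelled K1: replicate 1, a female), so that all 8 mice carried the floxed Nrf2 alleles and every control lacked 1 Keap1 allele. The mice were littermates of a mixed 129Sv/J and C57BL/6J background. Each slide held the mice of 1 sex, so that sex and slide cannot be told apart, and on both slides the controls lay in the first positions and the NEKO mice in the last, so that position and genotype cannot be told apart. As a check of the labels, Keap1 changed by -1.63 on the log2 scale in NEKO mice (SE 0.10, adjusted p = 0.00459 in limma), and every NEKO mouse lay below every control.

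P450 enzymes are heme proteins of the endoplasmic reticulum and mitochondria that insert an oxygen atom into a substrate with electrons handed on by P450 reductase or by ferredoxin. In the kidney most of them sit in the proximal tubule, where the CYP4A and CYP4F enzymes hydroxylate the end of fatty acid chains, the CYP2C and CYP2J enzymes make epoxides of arachidonic acid, and others oxidise drugs, steroids, sterols and retinoids. Keap1 holds back the transcription factor Nrf2, which drives genes of detoxification, and several rodent P450 genes are known for large differences between the sexes under androgen and growth hormone. In whole organ RNA, fewer cells of a type and less RNA per cell cannot be told apart. Summed over 14 proximal tubule genes, the level ran from 913 to 1287 in controls and from 974 to 1202 in NEKO mice (linear units of the 75th percentile of each array), so that the groups overlapped. Bright genes weigh most in such a sum. In 2 of the 14 every NEKO mouse lay above every control, against 4.49% of all named genes. Below every control lay all NEKO mice in 1, against 5.05%.

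The members that stood apart between the groups in one direction, Cyp2a4, Cyp2a5, Cyp2a22 and Cyp4f39, are shown first by the 250 bases before the start of each gene, from RefSeq on the build GRCm38.p6, to show how alike the regions are. The first 3 lie in 1 cluster of P450 genes on chromosome 7, with Cyp2a5 next to Cyp2a22, and Cyp4f39 lies at the edge of a cluster of Cyp4f genes on chromosome 17. Capitals mark TATAAA in the Cyp2a genes and GCGTG, the core of the element that the aryl hydrocarbon receptor binds, or its reverse complement in Cyp4f39. The windows are Cyp2a4 at chr7:26306942-26307191 on the plus strand, Cyp2a5 at chr7:26835089-26835338 on the plus strand, Cyp2a22 at chr7:26939387-26939636 on the minus strand and Cyp4f39 at chr17:32452473-32452722 on the plus strand.
Cyp2a4: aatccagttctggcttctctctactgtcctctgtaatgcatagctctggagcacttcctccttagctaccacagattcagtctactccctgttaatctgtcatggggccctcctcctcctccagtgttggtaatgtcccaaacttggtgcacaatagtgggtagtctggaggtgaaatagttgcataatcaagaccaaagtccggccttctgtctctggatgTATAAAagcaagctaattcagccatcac
Cyp2a5: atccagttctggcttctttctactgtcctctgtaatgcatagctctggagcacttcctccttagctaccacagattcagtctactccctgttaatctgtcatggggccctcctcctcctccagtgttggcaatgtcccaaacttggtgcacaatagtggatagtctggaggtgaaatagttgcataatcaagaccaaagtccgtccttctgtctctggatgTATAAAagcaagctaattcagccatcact
Cyp2a22: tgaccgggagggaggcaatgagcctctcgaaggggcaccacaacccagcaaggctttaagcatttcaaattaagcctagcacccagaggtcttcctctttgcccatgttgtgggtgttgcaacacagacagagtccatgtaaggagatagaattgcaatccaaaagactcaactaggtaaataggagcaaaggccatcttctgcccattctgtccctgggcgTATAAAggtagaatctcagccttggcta
Cyp4f39: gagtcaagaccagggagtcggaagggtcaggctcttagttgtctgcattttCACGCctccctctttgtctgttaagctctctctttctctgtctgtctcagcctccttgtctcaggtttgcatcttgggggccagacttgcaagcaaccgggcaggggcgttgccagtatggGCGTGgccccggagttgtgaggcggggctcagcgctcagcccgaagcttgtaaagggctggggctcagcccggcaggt
The windows of Cyp2a4 and Cyp2a5 were identical at 245 of 249 aligned bases, or 97.6% with 2 gap positions counted, while those of Cyp2a4 and Cyp2a22 matched at 51.1%. TATAAA started 28 bases before the start of Cyp2a4 and Cyp2a22 and 29 before that of Cyp2a5. It was found on either strand in 13 of the 38 members with a window in the table (34.2%) and in 14.3% of all 27025 genes there. None of the 4 windows held TGACNNNGC, the core of the antioxidant response element that Nrf2 binds, on either strand. That core was present in 2 of the 38 members, Cyp4f14 and Cyp4f18, and in 11.5% of all genes. GCGTG was present in 11 of the 38 members (28.9%) and in 30.8% of all genes. All searches covered both strands, the motifs did not overlap in the windows shown, and these are matches of letters in a short window.

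Between NEKO and control kidneys, 1 member was called at an adjusted p below 0.05 in limma, Cyp4f39, which was higher, and 0 were called lower. Over all named genes 0.11% were called higher and 0.169% lower. Cyp4f39 passed the filter on dim probes through the NEKO arrays alone, so that it had to differ, and nothing about the family is read from its call. Among the 50 members well above background in at least 1 mouse of both groups, 0 were called higher and 0 lower, against 0.0739% and 0.133% of the 13540 named genes chosen in the same way. At an unadjusted p below 0.05, 8 members were higher and 3 lower, or 15.7% and 5.88%, against 8.15% and 10.1% of all named genes. Cyp4f39, which had to differ, was among the 8 and was not taken out of this count. In 4 members every NEKO mouse lay above every control (7.84%, against 4.49% of all named genes), and in 1, Cyp39a1, every NEKO mouse lay below (1.96%, against 5.05%). Without Cyp4f39 it was 3 of 50 members with every NEKO mouse above, against 4.39% of the named genes well above background in both groups. The median log2 change of the members was -0.06, against -0.02 over all named genes, but the spread was wider: 26 members (51%) changed by less than 0.25 in either direction, against 72.4% of named genes, and 6 (11.8%), Cyp4f39 among them, by more than 1, against 3.26%. Any gene whose groups do not overlap gives the smallest p that an exact two-sided permutation test of 4 against 4 mice allows, 0.0286. The 4 members with every NEKO mouse higher, and Cyp39a1, were picked for that order. Their p was thus fixed in advance and is no support for them.

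**Figure D1:**
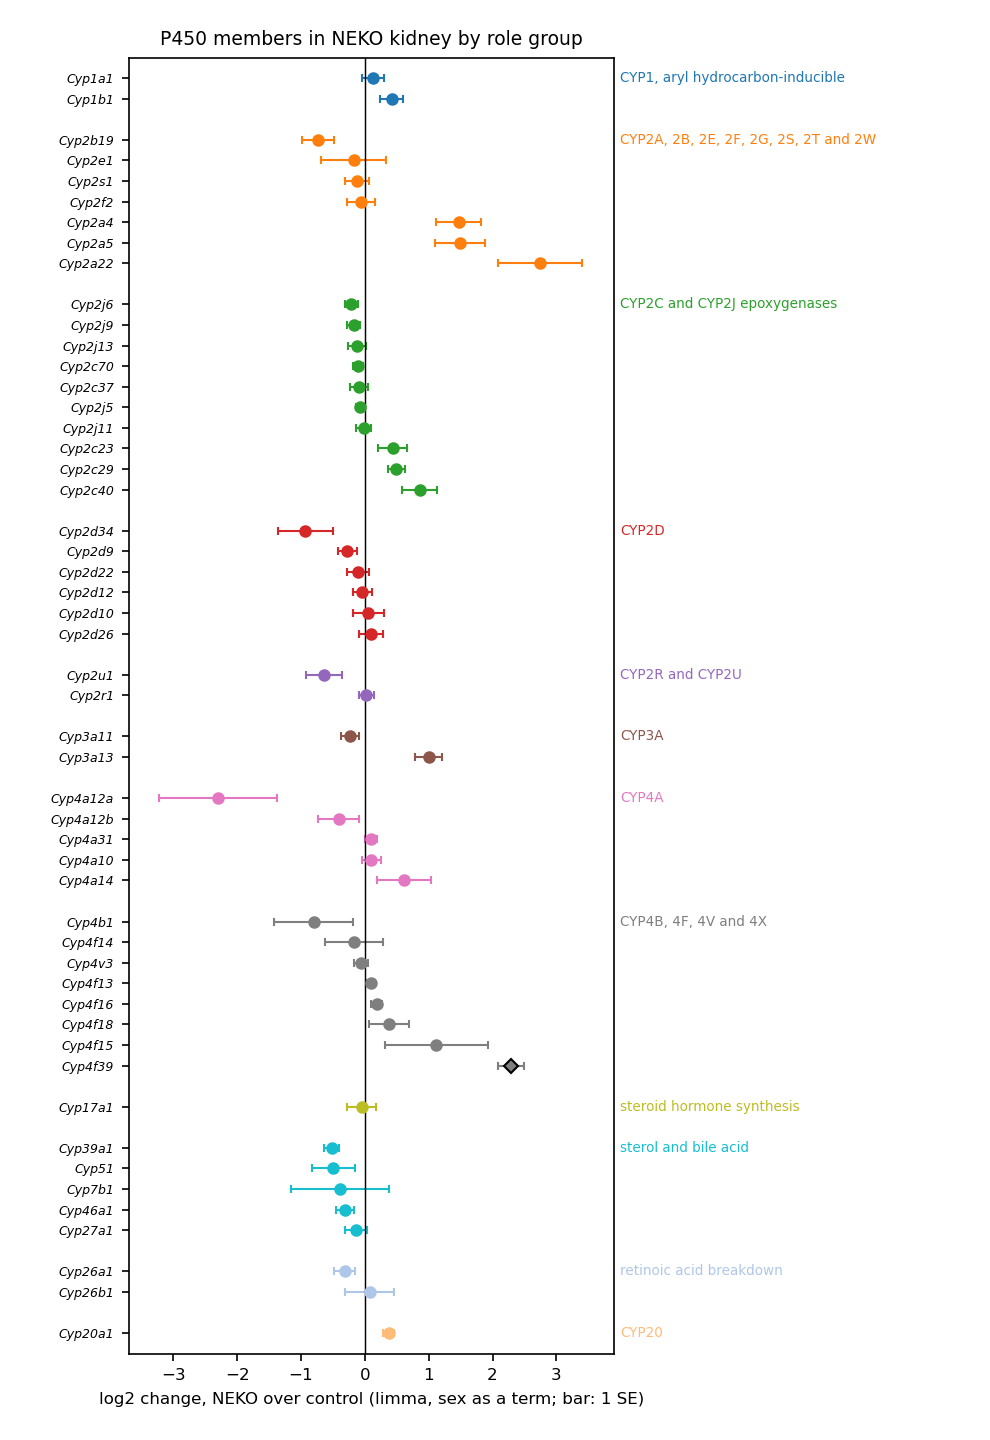
Log2 change of each of the 51 P450 members in NEKO over control kidney (x axis), grouped by role (y axis), with bars of 1 standard error from limma with sex as a term; the outlined diamond is the member called at an adjusted p below 0.05, Cyp4f39, drawn at its measured signals although those of the controls were not well above background. Most members lie within 0.25 of 0, the 3 Cyp2a genes and Cyp4f39 lie furthest to the right, and Cyp4a12a lies furthest to the left at -2.30.

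The CYP2A enzymes oxidise small substrates such as coumarin and nicotine, and Cyp2a4 is known as a steroid hydroxylase. All 3 members of this subfamily were higher in NEKO kidneys, though none passed the adjusted threshold over both sexes. The level of a gene is given here as log2 of its signal less the 75th percentile of its array. Cyp2a22 had levels of 1.44 and -1.13 in the control females (replicates 1 and 8), -0.04 and -0.37 in the control males (4 and 7), 1.88 and 1.70 in the NEKO females (2 and 3) and 3.93 and 3.38 in the NEKO males (5 and 6). Both NEKO males were the highest of all, and the lowest NEKO female lay only just above the K1 control. The log2 change was 2.75 (SE 0.66, 95% interval 1.20 to 4.30), with limma's adjusted p = 0.127.

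Cyp2a5, the coumarin hydroxylase of the mouse, had levels of 6.30 and 4.38 in the control females, 5.56 and 5.71 in the control males, 6.54 and 6.42 in the NEKO females and 7.61 and 7.31 in the NEKO males. The groups did not overlap, but the K1 control female came close to the NEKO females. The log2 change was 1.49 (SE 0.40, adjusted p = 0.150 in limma). Cyp2a4 had levels of 5.86 and 4.23 in the control females, 5.57 and 5.95 in the control males, 6.37 and 6.04 in the NEKO females and 7.77 and 7.30 in the NEKO males. Again the NEKO males were highest and the groups did not overlap, with a log2 change of 1.47 (SE 0.36, adjusted p = 0.131 in limma). The 2 other probes of Cyp2a4 gave changes of 1.08 and 1.46. Cyp2a4 and Cyp2a5 are near-identical genes, and how far their probes share transcripts was not tested.

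The K1 female was the highest control for Cyp2a22 and Cyp2a5. Without it the controls were the 3 K1Cre mice, and the log2 changes were 3.48 for Cyp2a22, 1.94 for Cyp2a5 and 1.86 for Cyp2a4. Their adjusted p in limma were 0.0184, 0.0151 and 0.0260. In that fit 4 members were called higher, while 34 of 13577 named genes (0.25%) were called in either direction. Leaving out a control that lay high for these genes raises their changes by construction, so these p are no support for a change. With any other single mouse left out, none of the 3 genes was called. Over 10 Nrf2 target genes the K1 female had the highest sum among the controls, 424 against 216 to 342 in the other 3 and 548 to 840 in NEKO mice. Of its 424 units 357 came from Gsta1 and Gstm1, and single targets were split: it was the highest control for 4 of the 10 and the lowest for 3. The part of these values in the result was not tested. With 1 mouse of that genotype, the missing K5-Cre and the mouse itself cannot be told apart. The other members of the group did not move with the CYP2A genes: Cyp2e1, which oxidises ethanol, changed by -0.18, Cyp2f2 by -0.06 and Cyp2s1 by -0.13. Cyp2b19, an epoxygenase of skin keratinocytes, was well above background in 2 NEKO mice and 4 controls and had levels of -4.41, -5.12, -4.86 and -4.21 in controls (replicates 1, 8, 4 and 7) and -5.80, -5.10, -5.09 and -5.55 in NEKO mice (2, 3, 5 and 6). The groups overlapped, and the log2 change was -0.74 (SE 0.25, adjusted p = 0.207 in limma).

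**Figure D2:**
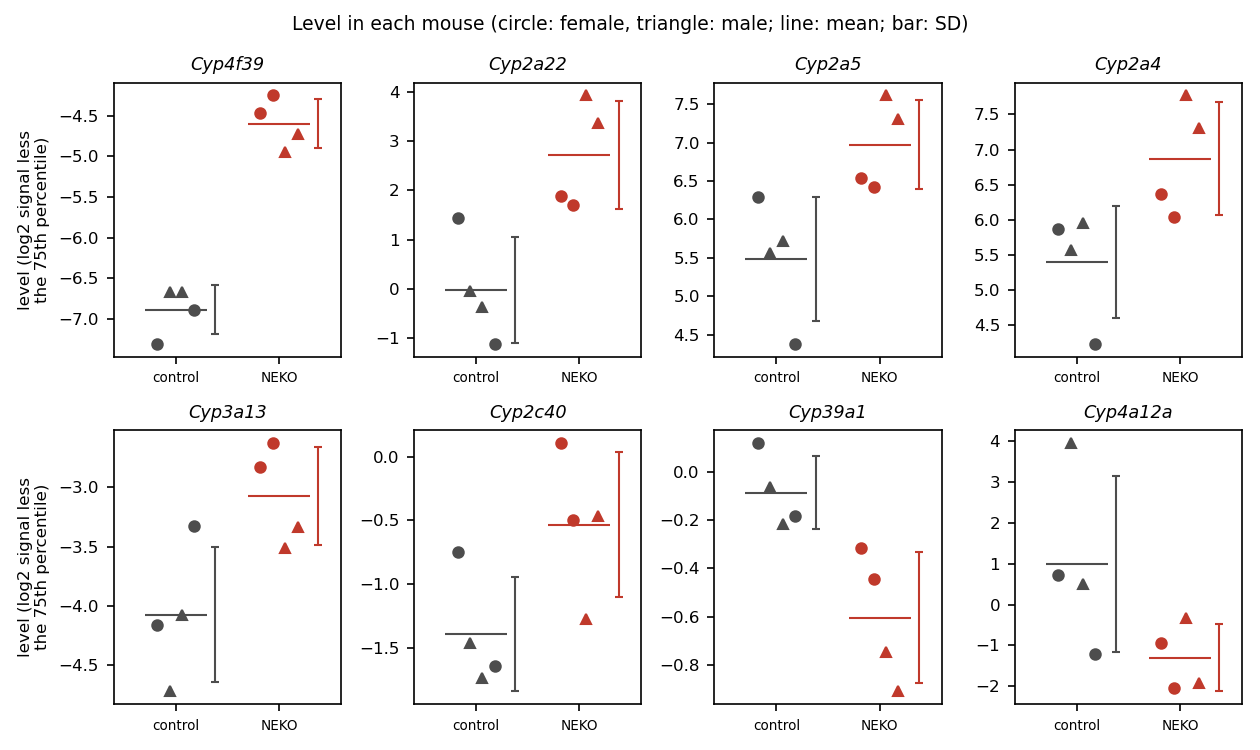
Level of 8 P450 members in each mouse (y axis, log2 signal less the 75th percentile of the array; x axis, control and NEKO, 4 mice each), with circles for females, triangles for males, a line at the mean and a bar of 1 SD. The groups are apart in Cyp4f39, the 3 Cyp2a genes and Cyp39a1, while 1 control male at 3.97 lies far above the rest in Cyp4a12a.

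Cyp4f39 is an omega-hydroxylase of very long fatty acids, known from the ceramides of the skin barrier. It had levels of -7.31 and -6.89 in the control females, -6.67 and -6.66 in the control males, -4.47 and -4.25 in the NEKO females and -4.95 and -4.73 in the NEKO males. The probe was well above background in all 4 NEKO mice and in 0 of 4 controls, so that the controls give only a bound. Taking for each control array the lowest signal rated well above background, the level in NEKO mice was at least 1.79-fold higher, with adjusted p = 0.013 in limma for the measured signals. Since the gene entered the test only through the group where it is high, that p is no support for the size of the change. The measured signals differed by 2.29 on the log2 scale, and by 0.69 with a normexp background correction. The call was lost without NEKO replicate 6 (adjusted p = 0.0573) and without control replicate 8 (adjusted p = 0.0608), and Cyp4f39 was not tested where all 8 arrays had to detect a gene. The neighbours of Cyp4f39 in its cluster that are members, Cyp4f13, Cyp4f14, Cyp4f15 and Cyp4f16, had log2 changes of 0.09, -0.16, 1.12 and 0.18, and none was called.

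The markers of the lining of the urinary tract, with the keratin Krt5 among them, are given beside Cyp4f39. Their summed level over 6 genes was 2.96 and 2.26 in control females, 1.20 and 1.87 in control males, 2.46 and 2.98 in NEKO females and 5.93 and 5.81 in NEKO males. The sums of the females overlapped between the genotypes, while the NEKO males lay above all others. The level of Cyp4f39 itself was higher in both NEKO females than in both NEKO males. None of the 6 markers was called, but their median log2 change was 1.10, and 4 of the 6 were higher at an unadjusted p below 0.05, against 8.15% of named genes. In 2 of them, the keratin Krt5 and the uroplakin Upk3b, every NEKO mouse lay above every control, and in 1, Upk1a, every NEKO mouse lay below, against 4.49% and 5.05% of named genes. Krt5 had the largest change, 1.85 with adjusted p = 0.14 in limma. The Keratin5 promoter is also the one that drives Cre in the NEKO mice and the K1Cre controls. The part of these markers in the Cyp4f39 result was not tested.

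The other hydroxylases of the CYP4 family were less uniform. Cyp4f15 was detected in 4 NEKO and 3 control mice and spread widely, from -5.46 to -2.35 in controls and from -4.45 to -0.54 in NEKO mice, with a log2 change of 1.12 (SE 0.81). The groups overlapped. Cyp4a12a, a hydroxylase of arachidonic acid in the mouse kidney and an androgen-driven gene, had levels of 0.73 and -1.22 in the control females, 3.97 and 0.51 in the control males, -0.93 and -2.04 in the NEKO females and -0.33 and -1.93 in the NEKO males. It had the largest negative change of the members, -2.30 (SE 0.93, 95% interval -4.49 to -0.12), but control replicate 4 lay far above every other mouse, the groups overlapped and the adjusted p was 0.261 in limma. Without that mouse the change was -1.40 (adjusted p = 0.381 in limma). Its near copy Cyp4a12b changed by -0.41. Cyp4a10 and Cyp4a31, PPARα-driven members of the same cluster, changed by 0.10 each by their brightest probes. The other probes of Cyp4a10 gave -0.27 and -0.02. Cyp4a14 ran from 2.82 to 6.81 in controls and from 4.31 to 6.47 in NEKO mice, with a log2 change of 0.62 that lay in the males (1.34, against -0.11 in females). Cyp4v3, which acts on fatty acids in the eye and other organs, changed by -0.06.

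Of the 10 members of CYP2C and CYP2J, subfamilies of which several enzymes make epoxyeicosatrienoic acids, 0 were called and the median change was -0.08. Cyp2c40 had levels of -0.74, -1.64, -1.46 and -1.73 in controls (replicates 1, 8, 4 and 7) and 0.11, -0.50, -1.27 and -0.47 in NEKO mice (2, 3, 5 and 6). Only the NEKO male replicate 5 fell within the range of the controls, and the log2 change was 0.86 (SE 0.27, adjusted p = 0.192 in limma), with 0.79 by its other probe. Cyp2c29 changed by 0.49 (SE 0.14, adjusted p = 0.158) and Cyp2c23, the arachidonic acid epoxygenase of the mouse kidney, by 0.44 (SE 0.22). By their brightest probes the 5 Cyp2j genes lay between -0.21 and -0.02. The other probes of Cyp2j13 gave -0.54, by a probe well above background in males only, and -0.23. Those of Cyp2j5, Cyp2j6 and Cyp2j11 gave 0.066, -0.068 and 0.005. Cyp2j5, the kidney epoxygenase known from blood pressure studies, changed by -0.07 with a 95% interval of -0.22 to 0.09.

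Cyp3a13, a CYP3A enzyme of drug and steroid oxidation, had levels of -4.16, -3.33, -4.72 and -4.08 in controls (replicates 1, 8, 4 and 7) and -2.83, -2.62, -3.51 and -3.34 in NEKO mice (2, 3, 5 and 6). Within each sex both NEKO mice lay above both controls, but the control female replicate 8 reached the NEKO males. The log2 change was 1.00 (SE 0.21, 95% interval 0.50 to 1.50, adjusted p = 0.107 in limma), and it was alike in both sexes, 1.02 in females and 0.98 in males. The other CYP3A member, Cyp3a11, changed by -0.24. Cyp20a1, an enzyme without a known substrate, changed by 0.37 (SE 0.09, adjusted p = 0.128). The CYP1 genes, read-outs of the aryl hydrocarbon receptor, changed by 0.13 (Cyp1a1) and 0.42 (Cyp1b1), the latter with a 95% interval of -0.01 to 0.85.

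The 5 members placed in the sterol and bile acid group had changes from -0.14 to -0.52 over both sexes, with a median of -0.39, and 0 were called. The sexes differed, with a median of 0.23 in females and -0.69 in males: Cyp51, Cyp27a1 and Cyp7b1 had changes of 0.27, 0.23 and 1.32 in females. The change of Cyp7b1 over both sexes, -0.39, turned to 0.13 without control replicate 4 and to 0.29 without NEKO replicate 6. Cyp39a1, an oxysterol hydroxylase of bile acid synthesis, had levels of 0.12 and -0.18 in the control females, -0.06 and -0.22 in the control males, -0.32 and -0.44 in the NEKO females and -0.75 and -0.91 in the NEKO males. Every NEKO mouse lay below every control, and the males were lowest. The log2 change was -0.52 (SE 0.12, 95% interval -0.79 to -0.25, adjusted p = 0.114 in limma), and the second probe gave -0.48. Cyp46a1, the cholesterol hydroxylase known from the brain, changed by -0.31 and Cyp27a1, the mitochondrial sterol hydroxylase, by -0.14. Cyp51, the lanosterol demethylase of cholesterol synthesis, changed by -0.49 over both sexes, but its levels were 0.94 and 0.42 in the NEKO males against 2.04 and 1.84 in the control males, while the females ran from 1.69 to 2.29 in both genotypes. All 3 probes of Cyp51 gave this split, with changes of -1.26, -1.22 and -1.03 in males and 0.27, 0.27 and 0.22 in females.

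Of the other members, Cyp17a1, a hydroxylase of androgen synthesis, changed by -0.05 over 7 arrays, since control replicate 1 was dropped as an outlier spot. The 8 adrenal cortex markers had sums of 2.82 to 4.09 in controls and 2.77 to 3.87 in NEKO mice. Cyp26a1 and Cyp26b1, which break down retinoic acid, changed by -0.31 and 0.07. The 6 CYP2D members had a median change of -0.07, and all but Cyp2d34 lay between -0.27 and 0.10 by their brightest probes. Other probes gave -0.24 for Cyp2d10, 0.25 for Cyp2d22 and -0.33 for Cyp2d9. Cyp2d34 had levels of 0.33 and -0.31 in the control females, 0.63 and 0.51 in the control males, 0.04 and -0.13 in the NEKO females and -0.60 and -1.87 in the NEKO males, so that the NEKO males alone were low. Its log2 change was -0.93 (SE 0.43).

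Several members differed between the sexes more than between the genotypes. In the same fit, 1 member was called higher in males (against 0.575% of named genes) and 2 lower (against 0.331%). Cyp2j5 was higher in males by 0.52 (SE 0.07, adjusted p = 0.036 in limma), with 6.08, 6.13, 6.07 and 6.06 in the females (replicates 1, 8, 2 and 3) and 6.64, 6.67, 6.62 and 6.49 in the males (4, 7, 5 and 6). Cyp4a31 differed by -0.73 (adjusted p = 0.042) and Cyp2c29 by -0.87 (adjusted p = 0.047), both lower in males. Leaving out single mice left between 0 and 1 called in each direction. The calls of Cyp2j5 and Cyp2c29 were lost whichever mouse was left out. That of Cyp4a31 was kept only without NEKO replicate 6, where the member called higher in males was Cyp4b1. At an unadjusted p below 0.05, 9 members were higher and 16 lower in males, or 17.6% and 31.4%, against 11.5% and 11.4% of all named genes.

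The largest sex differences were not among those called. In controls 7 of 50 members with values on all arrays differed between males and females by more than 1 on the log2 scale (14% of them, against 3.35% of named genes), and in all 7 the difference was smaller in NEKO mice, as it was in 83.4% of the named genes chosen in the same way. Cyp7b1, an oxysterol and steroid hydroxylase and a classic androgen-driven gene of the kidney, had levels of -0.44 and -0.43 in the control females, 5.11 and 4.21 in the control males, 1.43 and 0.34 in the NEKO females and 3.41 and 1.72 in the NEKO males. Both NEKO females lay above the control females and both NEKO males below the control males. The difference of males over females was 5.10 in controls and 1.68 in NEKO mice, with an interaction of genotype and sex of -3.42 (SE 0.89, unadjusted p = 0.0082, adjusted p = 0.231 in limma).

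Cyp4b1, a fatty acid and xenobiotic hydroxylase, had levels of 4.65 and 4.34 in the control females, 7.81 and 7.49 in the control males, 4.40 and 4.80 in the NEKO females and 7.24 and 4.63 in the NEKO males. NEKO replicate 6 was at the level of the females, while NEKO replicate 5 stayed near the control males. The sex difference was 3.15 in controls and 1.33 in NEKO mice. Without NEKO replicate 6 it was 2.95 over both genotypes, with adjusted p = 0.00699 in limma, against 2.24 and 0.110 with all mice. Cyp2e1 was higher in males by 2.47 in controls and by 1.49 in NEKO mice (1.98 in all, adjusted p = 0.098 in limma). Cyp4a14, a peroxisome proliferator-driven hydroxylase known as higher in females, had levels of 6.81 and 6.22 in the control females, 2.82 and 4.09 in the control males, 6.47 and 6.34 in the NEKO females and 4.31 and 5.29 in the NEKO males. Every female lay above every male, and both NEKO males lay above both control males. The sex difference was -3.06 in controls and -1.60 in NEKO mice (-2.33 in all, SE 0.43, adjusted p = 0.062 in limma).

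The probes of Cyp2j13, an epoxygenase known from the male kidney, disagreed. By its brightest probe males were higher by 0.84 (adjusted p = 0.054 in limma), with 1.75 to 1.91 in the females and 2.37 to 3.04 in the males. By another probe the levels were -6.23 and -3.72 in the control females, 5.55 and 4.71 in the control males, -3.69 and -4.29 in the NEKO females and 4.76 and 2.61 in the NEKO males, a difference of 8.89 (adjusted p = 0.0154 in limma), and the probe was well above background in 3 of 4 females. The remaining probe was well above background in 0 females and all 4 males and so passed the filter through the males alone. By it males were at least 31.5-fold higher, given as a bound with no test. All 3 probes had NEKO replicate 6 as the lowest male. Which transcripts the brightest probe reads was not tested.

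**Figure D3:**
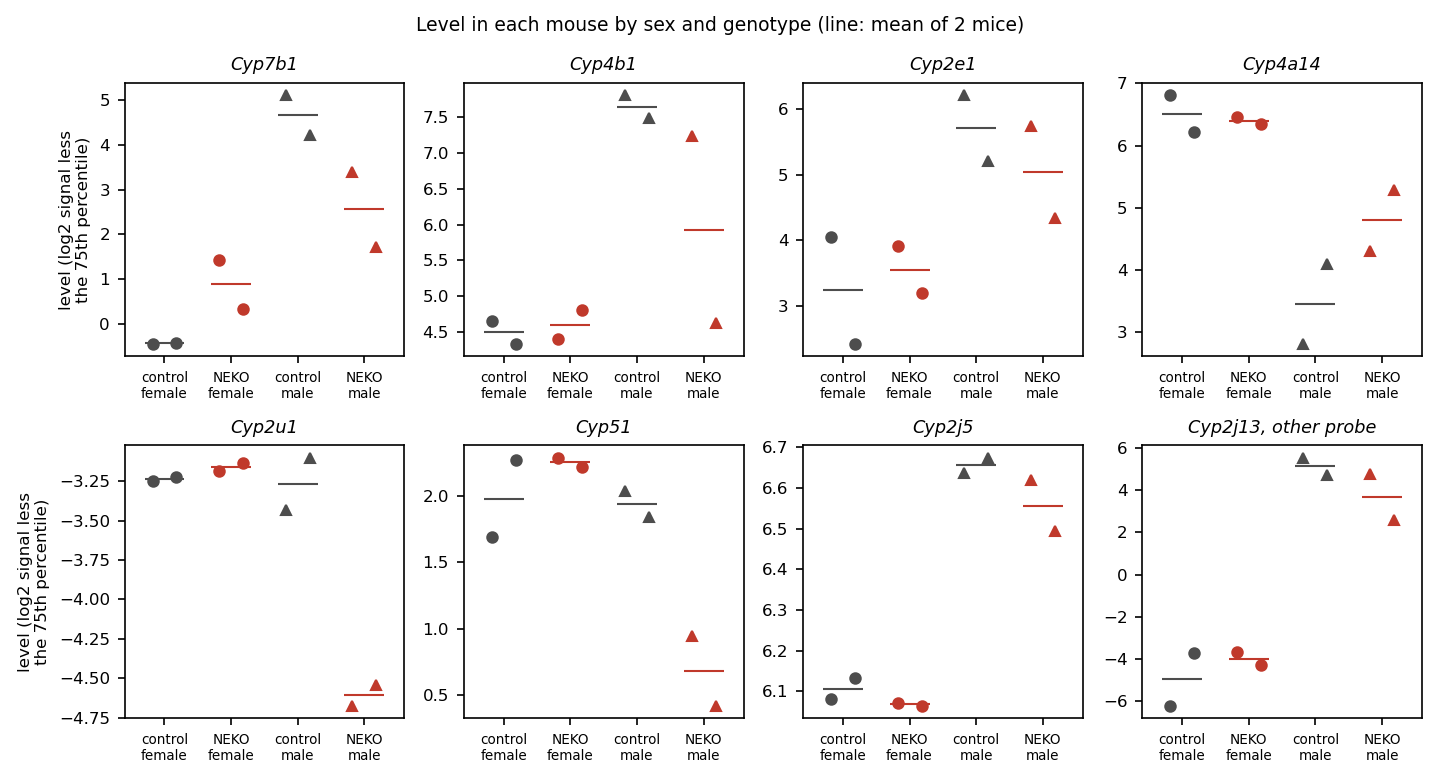
Level of 8 P450 members in each mouse (y axis, log2 signal less the 75th percentile of the array) in control and NEKO females (circles) and males (triangles), 2 mice each, with a line at their mean; Cyp2j13 is shown by its probe with the largest sex difference. In Cyp7b1, Cyp4b1, Cyp2e1 and Cyp4a14 the means of the males lie closer to the females in NEKO mice than in controls, and in Cyp2u1 and Cyp51 the NEKO males alone are low.

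The genotype effect itself was wider in males. Both control males were K1Cre, while the control females were replicate 1 (K1) and replicate 8 (K1Cre). The controls of the sexes were thus unlike, and they lay on different slides. The median size of the log2 change over the members, regardless of sign, was 0.43 in males and 0.19 in females, against 0.19 and 0.14 over all named genes. The interaction of genotype and sex was called in 0 members (limma, against 0.00737% of named genes in each direction). At an unadjusted p below 0.05 it was positive in 2 members and negative in 6, or 3.92% and 11.8%, against 7.2% and 3.9% of named genes. The strongest by that p was Cyp2u1, a hydroxylase of long fatty acids, which had levels of -3.25 and -3.22 in the control females, -3.43 and -3.10 in the control males, -3.19 and -3.14 in the NEKO females and -4.67 and -4.54 in the NEKO males. The NEKO males lay well below all other mice, which spanned a narrow range. The interaction was -1.42 (SE 0.19, unadjusted p = 0.000281, adjusted p = 0.091 in limma). For Cyp51 it was -1.53 (SE 0.35, unadjusted p = 0.0043, adjusted p = 0.177), and for Cyp2d34 -1.75 (SE 0.59, adjusted p = 0.358). On the positive side, Cyp2a22 changed by 3.86 in males and 1.63 in females (interaction 2.23, adjusted p = 0.553). That size rested on the control females, since the interaction was 0.94 without replicate 1 and 3.51 without replicate 8. Within males alone, 2 NEKO against 2 control mice, limma's adjusted p was 0.00827 for Cyp2u1, 0.0489 for Cyp51 and 0.0493 for Cyp2a22. It was 0.0066 for Cyp4f39, which had to differ. The share of named genes that passed in males was not computed, so these p are given as values only. Cyp4f18, a hydroxylase of leukotrienes in leukocytes, changed by 0.97 in males and -0.21 in females (interaction 1.18, adjusted p = 0.445). The 9 macrophage markers had a median interaction of 0.96. In males Lyz2 changed by 2.67 (adjusted p = 0.0319 in limma), Itgam by 1.30 and Mrc1 by 1.06, and in 4 of the 9 both NEKO males lay above both control males, while in 1, Csf1r, they lay below. Their sums, of which Cd74 made up 48.5% to 65.2%, ran from 12.1 to 16.7 in controls and from 9.54 to 17.8 in NEKO mice. The sums of 7 lymphocyte markers were 1.62 and 1.81 in the NEKO males against 0.92 to 1.41 in the other mice. Their part in the Cyp4f18 values was not tested.

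**Figure D4:**
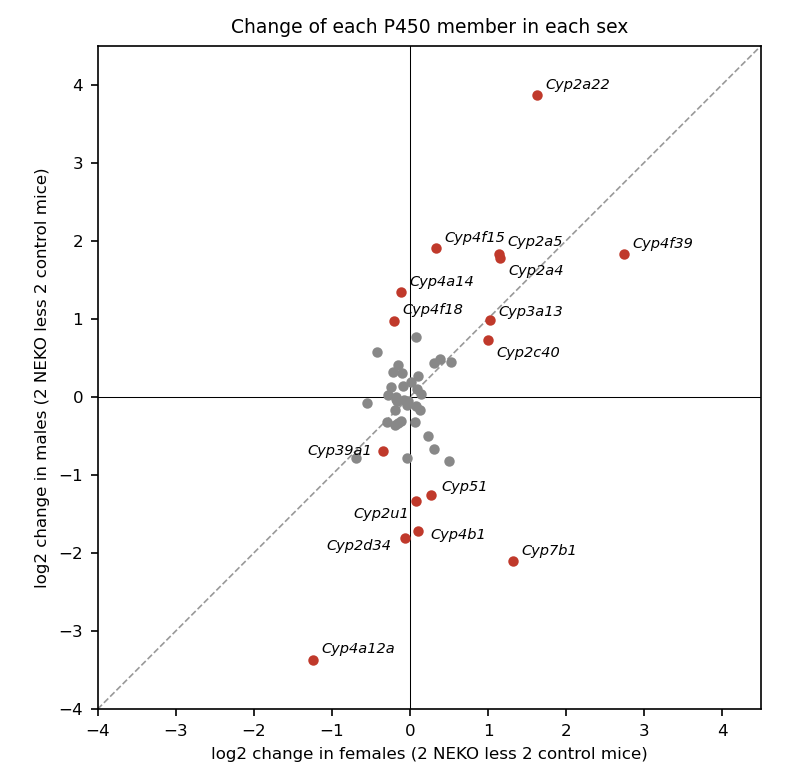
Log2 change of each of the 51 P450 members in males (y axis) against that in females (x axis), each from 2 NEKO and 2 control mice, with the dashed line where both are equal and named genes in red. Cyp2a22, Cyp2a4, Cyp2a5, Cyp3a13, Cyp2c40 and Cyp4f39 are higher in both sexes, Cyp4f39 against control signals not well above background, Cyp4a12a is lower in both, and Cyp7b1 is higher in females (1.32) and lower in males (-2.10).

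Androgen-driven genes outside the family were set beside these sex patterns. Over 5 such kidney genes the summed level was 298 in both control females, 509.5 and 409 in the control males, 325 and 269 in the NEKO females and 377 and 333 in the NEKO males. The NEKO males lay below the control males and above the NEKO females. Single genes of the list did not move alike: in males Slc22a7, an organic anion carrier, changed by -5.93 and Odc1 by -0.68, while Kap, the kidney androgen-regulated protein, changed by 0.03. Kap had the highest level of the 5 in every mouse, 7.40 to 8.14, and weighs most in the sum. The differences of males over females in controls and NEKO mice were 3.11 and 2.68 for Timd2 and 0.32 and 0.43 for Kap. They were 0.75 and 0.18 for Odc1, 0.62 and 0.18 for Gusb, and 2.99 and -4.50 for Slc22a7. The part of these values in the P450 results was not tested.

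None of the 44 tested genes of the machinery around the P450 enzymes was called, against 0.28% of named genes in either direction. They comprised 10 of 12 electron donors and carriers, 8 of 8 genes of heme synthesis, 16 of 19 receptors and factors that drive P450 genes, 8 of 9 enzymes that act beside P450 or on its products, and 2 of 2 P450 enzymes with other symbols, Ptgis and Tbxas1. Their median changes lay between -0.09 and 0.02. Por, the reductase that feeds all microsomal P450 enzymes, was flat: its levels were 5.99, 5.75, 6.11 and 6.14 in controls (replicates 1, 8, 4 and 7) and 5.97, 5.83, 6.18 and 5.96 in NEKO mice (2, 3, 5 and 6), a change of -0.01 (SE 0.09). Alas1, which starts heme synthesis, changed by -0.09 (SE 0.28).

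In 6 of the 44 the groups did not overlap, with 3 above and 3 below (6.82% each, against 4.49% and 5.05% of named genes). Ephx1, the microsomal epoxide hydrolase and a known Nrf2 target, had levels of 1.78, 1.72, 0.76 and 1.17 in controls and 2.29, 2.52, 2.64 and 3.17 in NEKO mice, in the same order of mice. It changed by 1.30 (SE 0.28, adjusted p = 0.111 in limma), and by 1.94 in males against 0.66 in females. Pgrmc1, a heme-binding partner of P450 enzymes, had levels of 4.57, 4.51, 3.99 and 4.40 in controls and 4.92, 4.98, 5.36 and 5.81 in NEKO mice. It changed by 0.90 (SE 0.23, adjusted p = 0.139). In both genes the NEKO males were highest and the control males lowest, and both passed the threshold where the mean of the female and male effects was tested (adjusted p = 0.0175 and 0.0346 in limma). The epidermal epoxide hydrolase Ephx3 changed by -1.04 (SE 0.36, adjusted p = 0.209) and the ferredoxin reductase Fdxr by -0.29 (SE 0.09, adjusted p = 0.196). Ahr, the aryl hydrocarbon receptor, changed by 0.37 (SE 0.10, adjusted p = 0.163) and Nr1h2, a liver X receptor, by -0.16 (SE 0.08, adjusted p = 0.312). The xenobiotic receptors Nr1i2 and Nr1i3 changed by 0.32 and 0.17, and Ppara by 0.13.

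**Figure D5:**
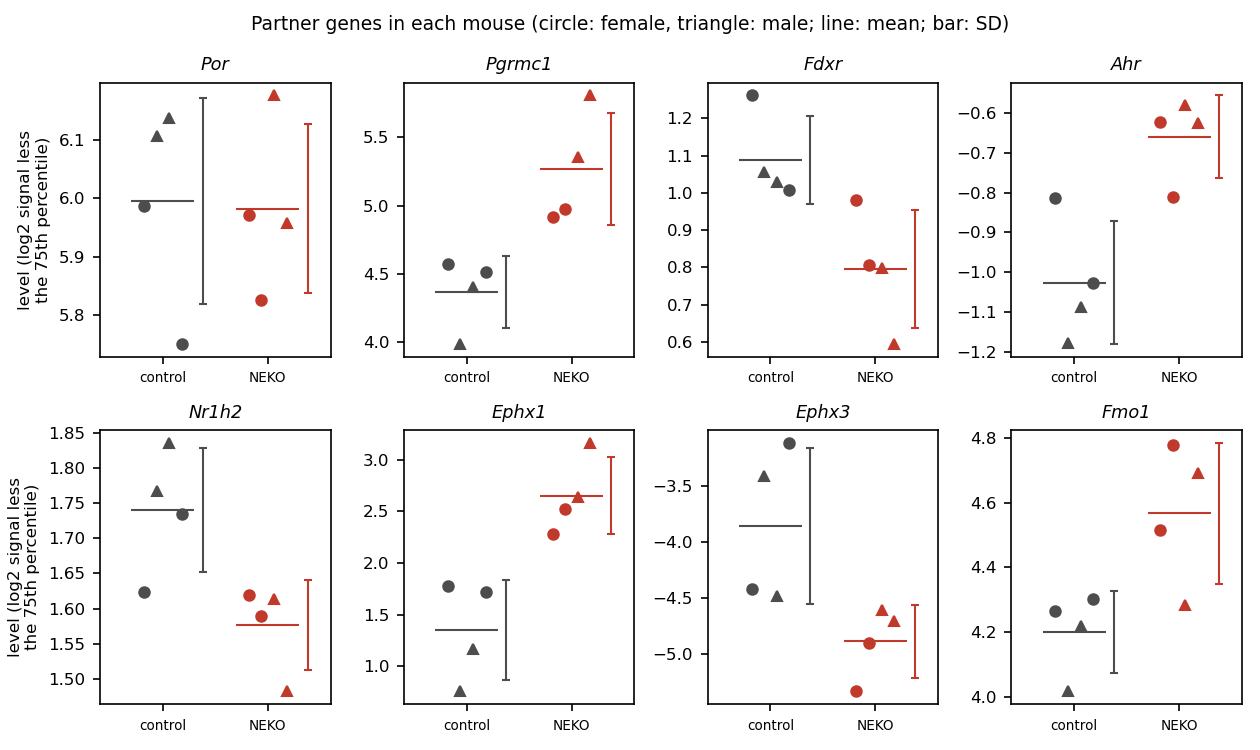
Level of 8 genes that work beside the P450 enzymes in each mouse (y axis, log2 signal less the 75th percentile of the array; x axis, control and NEKO, 4 mice each), with circles for females, triangles for males, a line at the mean and a bar of 1 SD. Por lies at the same level in both groups, Pgrmc1, Ahr and Ephx1 are higher in every NEKO mouse, and Fdxr, Nr1h2 and Ephx3 are lower in every NEKO mouse.

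The 27 P450 genes that were not tested were well above background on 0 to 2 of the 8 arrays. Among them Cyp2b9 was rated so in 2 controls, Cyp2c55 and Cyp7a1 in 1 control and 1 NEKO mouse each, Cyp2b10, Cyp3a44 and Cyp4a29 in 1 control each, and Cyp11a1 and Cyp3a16 in 1 NEKO mouse each. Adipocyte markers varied among the kidneys of both groups, with sums over 4 genes of 1.60 to 35.4 in controls and 5.52 to 40.8 in NEKO mice. The sums did not separate the groups, and the mice with the highest sums, NEKO replicates 2 and 6 and control replicate 8, were of both sexes.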

How the data were processed

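Whole kidney RNA of 8 mice was hybridised to 1-colour Agilent mouse arrays. The deposited scanner files hold background-corrected signal intensity per spot, made by the authors with Feature Extraction 10.7.3.1. The deposited matrix holds log2 values centred for each probe. Of these, 99.9% lay within 0.01 of log2 signal less each array's 75th percentile and less each probe's median over the 8 arrays (41079 shared probes). These arrays had 61.9% to 65.8% of probes well above background and 0 saturated probes. Their number limits the precision. Probes were named by accession through RefSeq (26690 of 41174 probes). Outlier spots were dropped, repeated spots averaged, and a gene was represented by its brightest probe well above background on 4 or more arrays. R 4.3.3 with limma 3.58.1 fitted genotype and sex over 19600 genes and unnamed transcripts, with Benjamini-Hochberg adjustment over all. A second fit held the interaction. The steps were tested on simulated data. Described genes were those called, the 8 largest changes each way, those with groups apart, the 4 largest interactions each way, and lists of sex-biased and partner genes. The members and lists were chosen with earlier results of these data known. A partner gene is not reported here. Mice were separate animals. Alternatives included normexp, quantile and median scaling, other filters and tests, the deposited matrix, and leaving out each mouse.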

Additional observations from a re-analysis of the deposited data

Results flagged for a closer look

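In 2 of 101 groups of 4 mice, 1 mouse lay far from the other 3 by Dixon's criterion, which chance meets in about 1 of 20 groups. Cyp2d9 stood at 5.94 in control replicate 1, above the other controls, and Cyp4b1 stood at 7.24 in NEKO replicate 5, above the other NEKO mice. Each group pools both sexes: NEKO replicate 5 is a male close to the control males (7.81 and 7.49), and the other NEKO male, replicate 6, lay at the level of the females (4.63). In 3 of the 50 members with values on all arrays every NEKO female lay on one side of the control females and every NEKO male on the other side of the control males. The same pattern was seen in 5.93% of named genes, so that 3 of 50 is near the background. The 3 members were Cyp7b1, with an interaction of genotype and sex of -3.42, Cyp2u1, with -1.42, and Cyp27a1, with -0.74. Their adjusted p in limma's interaction test were 0.231, 0.0909 and 0.280, so that none passed the threshold. For Cyp2u1 the shift in the females was 0.07 and that in the males -1.34.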

How the results depend on the processing

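With single mice left out, the number of members called higher in NEKO mice ran from 0 to 4 (0 without NEKO replicate 6 or control replicate 8, 4 without control replicate 1), against 1 with all mice. It was 0 where all 8 arrays had to detect a gene, since Cyp4f39 was then not tested, 0 with the methods' t-test after Benjamini-Hochberg adjustment and 6 without adjustment. Of all named genes, 0.11% to 0.25% were called in either direction with single mice left out. Where all 8 arrays had to detect a gene it was 0.141%. The number called lower was 0 with all mice, 1 (Cyp2u1) with the effect averaged over the sexes and 2 with the unadjusted t-test. Partner genes called were 0 in the reported fit, 2 higher with the averaged effect, and 5 higher and 2 lower with the unadjusted t-test. For the t-tests, the averaged effect and the alternative counts by sex below, no share over all named genes was computed. Those counts are no result about the members or the partner genes. Members with every NEKO mouse lower numbered 1, 2 without a filter on dim probes and 1 to 6 with single mice left out (2 without control replicate 7, 6 without control replicate 8). Smaller groups lie apart more often without any change, and the share of named genes was not computed for these settings. The rise is thus no result about the members. Members called higher in males were 1 in the reported fit, 0 with quantile normalization or no filter, 2 with normexp, median scaling, detection on all 8 arrays, the mean of probes, trend and robust, or array weights, and 0 to 1 with mice left out. Members called lower in males were 2, then 4 with normexp or trend and robust, 1 with quantile or median scaling, 0 without a filter, and 0 to 1 with mice left out. The median of the CYP3A group was -0.28 without a filter, that of the CYP2A to 2W group 0.70 with detection on all 8 arrays, and that of the sterol group -0.58 to -0.23 with mice left out. The small change of Cyp2e1 ran from -0.60 to 0.20 with mice left out and that of Cyp7b1 from -0.95 to 0.29. They turned positive (0.05, 0.12 and 0.20 for Cyp2e1, 0.13 and 0.29 for Cyp7b1) without control replicate 4 or NEKO replicate 6, and for Cyp2e1 also without control replicate 1. That of Cyp2j5 turned to 0.066 by its other probe, an alternative chosen after seeing the data. Other causes were not tested. No interaction was called under any of 17 alternatives. No paired analysis was possible because the labels do not give the litter of each mouse. With 4 mice a group and sex tied to the slide, changes of moderate size in variable genes could not be told from the spread.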
